A study of Mus musculus with 9 samples.

Results

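The interleukin-1 (IL-1) family genes described here are the ligands *Il1a*, *Il1b* and *Il18*, the antagonists *Il1rn* and *Il18bp*, and the receptor genes *Il1r1*, *Il1r2*, *Il1rap*, *Il1rl1* and *Il18rap*. They were taken from the count table by gene symbol, and these 10 genes are 10 of the 27719 genes and loci in it. All 10 had enough counts to be tested.

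IL-1α and IL-1β are alarm cytokines of damaged epithelium and of activated myeloid cells, and both signal through the receptor IL1R1 paired with the accessory protein IL1RAP. The family is held in check at several levels: IL1RN occupies IL1R1 without signalling, IL1R2 is a decoy receptor that binds IL-1 but cannot signal, and IL18BP is a secreted protein that captures IL-18. IL-1β and IL-18 are made as inactive precursors that caspase-1 cuts in the inflammasome, so that the RNA measured here does not report the amount of active cytokine. IL-18 is made by the healthy colon epithelium, whereas IL-1β is a classic product of the myeloid cells that enter an inflamed colon.

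Colon RNA of 9 C57BL/6J mice was read as full-length cDNA on an Oxford Nanopore instrument, with 3 mice in each group and 1 library per mouse. The control group drank water. The DSS group drank 2.5% dextran sodium sulfate, which injures the colon epithelium, for 7 days. The DSS + EA group drank the same DSS and received electroacupuncture (EA), a weak current of 0.2 mA at 2 Hz through needles at both ST36 points of the hind limbs, for 30 minutes once a day over 5 days, begun after 5 days of DSS modeling. Mice of the other groups were restrained for the same time without EA, and no group described had needles without current. The deposited counts summed to 3742630, 3229346 and 2627695 in control mice 1 to 3. In the DSS mice they summed to 3189244, 4235576 and 3230895, and in the DSS + EA mice to 3259727, 2842304 and 3283282. Values are given as counts or as CPM, in which counts are scaled by TMM-adjusted library size. Depending on the library, 3 counts, the floor used for lower bounds, equal 0.652 to 1.15 CPM, and floors and intervals cover counting error only. Fewer cells of a type and less RNA per cell cannot be told apart in such bulk tissue.

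The tissue label was checked with 13 colon epithelium markers, all of which had counts. Their summed level was 19560, 15080 and 31810 CPM in the control mice, 12270, 4413 and 2660 CPM in the DSS mice and 14680, 18820 and 11680 CPM in the DSS + EA mice. Several libraries stood apart from their group. Pancreatic acinar genes, which do not belong to colon, summed to 530, 30060 and 14990 CPM in the DSS + EA mice and to at most 262 CPM in any other mouse, where nearly all of it was *Cela1*. *Prss2*, for example, was counted 241, 13882 and 8470 times in the DSS + EA mice and at most 2 times in any other mouse, so all 3 DSS + EA libraries hold such RNA and no comparison with them is free of it. In the DSS group, mouse 1 had a summed neutrophil marker level of 4581 CPM, against 25260 and 27740 CPM in mice 2 and 3. Where leaving out 1 mouse changed a call of one of the 10 genes, the mouse or the range of values is given beside the result.

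Of the 10 genes, 4 lie in 1 receptor cluster on chromosome 1. In the GRCm38 annotation *Il1r2*, *Il1r1*, *Il1rl2*, *Il1rl1*, *Il18r1* and *Il18rap* follow each other on the plus strand over 478 kb, at chr1:40074079-40551705. *Il1a* (chr2:129299610-129309972) and *Il1b* (chr2:129364570-129371139) are neighbours on the minus strand of chromosome 2, and *Il1rn* lies apart from them at chr2:24336853-24351494 on the plus strand. *Il18* is at chr9:50554827-50581840 and *Il1rap* at chr16:26581704-26730117, both on the plus strand. *Il18bp*, at chr7:102014885-102018690 on the minus strand, shares 80 exonic bases with *Numa1* on the opposite strand. Reads from overlapping genes on opposite strands could have been divided between them, since the use of strand is not given in the sources used here. The counts of *Numa1* were 132, 84 and 92 in the control mice, 67, 110 and 74 in the DSS mice and 90, 66 and 67 after EA, and none of the 3 comparisons called it. Antisense transcripts also share 552 exonic bases with *Il1rap*, 222 with *Il1a* and 25 with *Il1b*.

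Stretches before the transcription start are shown for the 4 genes with at most 8 counts in each control mouse and a called rise with DSS (*Il1a*, *Il1b*, *Il18rap* and *Il1r2*) and for the antagonist *Il18bp*, the one gene higher with EA. They are from RefSeq on GRCm38.p6, written 5′ to 3′ on the gene's strand, with matches to the letter patterns searched in capitals. *Il1a* is at chr2:129309973-129310102 (minus strand), *Il1b* at chr2:129371140-129371269 (minus), *Il18rap* at chr1:40515232-40515361 (plus), *Il1r2* at chr1:40085978-40086007 (plus) and *Il18bp* at chr7:102018261-102018290 (minus). The last 2 are cut to 30 bases because exons of other transcripts overlap them.
Il1a: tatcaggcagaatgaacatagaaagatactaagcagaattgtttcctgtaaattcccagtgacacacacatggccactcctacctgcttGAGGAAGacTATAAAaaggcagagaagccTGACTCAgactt
Il1b: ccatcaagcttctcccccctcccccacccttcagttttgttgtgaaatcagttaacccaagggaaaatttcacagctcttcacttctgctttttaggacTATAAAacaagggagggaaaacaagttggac
Il18rap: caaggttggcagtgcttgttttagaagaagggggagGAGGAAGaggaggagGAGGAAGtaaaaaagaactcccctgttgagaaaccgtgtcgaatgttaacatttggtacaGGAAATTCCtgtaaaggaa
Il1r2: ctttttcaaGGAACTTCCgactactctgtt
Il18bp: gagccagtgTTGCGGAAGTGCCttcctggc

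The patterns were GGNNNTTCC (NF-κB type), TGANTCA (AP-1 type), TTGCNNAA (C/EBP type) and GAGGAAG (PU.1 type) on both strands, and TATAAA on the gene strand. They were searched in 300-base windows around each start. Genes with several starts have several windows, and the 10 genes have 14. *Il1a* and *Il1b* both carry TATAAA, beginning 32 and 31 bases before the start, and no other of the 10 genes does, against 8.32% of all 32851 promoters. The NF-κB type pattern occurred in 8 of the 14 windows, against 18.5% of all promoters. These windows belong to 6 of the 10 genes (*Il1r1*, *Il1r2*, *Il1rl1*, *Il18rap*, *Il1rn* and *Il18bp*), and overlapping windows of *Il1rn* share 1 match. In *Il1r2* it begins 106 bases before the start and in *Il18rap* 19 bases before it. In *Il18bp* a C/EBP type match and an NF-κB type match on the other strand overlap. The PU.1 type pattern occurred in 2 genes (13.6% of all promoters), the C/EBP type in 3 (10.8%) and the AP-1 type in 2 (7.81%). A match is a description of letters and not a binding site.

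Most of the family was higher with DSS, and with EA part of it was lower and 1 member higher still. Compared with the control group, 8 of the 10 genes were higher in the DSS group, 0 were lower, and *Il18* and *Il1rap* were not called (edgeR's quasi-likelihood test, Benjamini-Hochberg adjusted p under 0.05 over 12566 genes). Among all genes tested 21.5% were called higher and 19.5% lower. The 10 genes had a median log2 fold change of 3.48, against 0.02 for all genes. Of the 10, 6 met the stricter DEG rule (log2 fold change beyond 2.5 and unadjusted P under 0.01), which 10.2% of all genes met, and the 3 control mice lay below the 3 DSS mice in 8, where 52% of all genes had groups that did not overlap. *Il1a*, *Il1b*, *Il1r2*, *Il1rap* and *Il18rap*, low in every control mouse, passed the filter on low counts through mice given DSS. Their calls, and the counts and the median over the 10 genes, are therefore a description.

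Compared with the DSS group, 4 genes were lower in the DSS + EA group (*Il1a*, *Il1r1*, *Il1r2* and *Il18rap*), 1 was higher (*Il18bp*) and 5 were not called, among them *Il1b*. Of all genes, 17.2% were called higher and 18.3% lower in this comparison. The median log2 fold change of the 10 genes was -1.16, against -0.02 for all genes. The DEG rule was met by 3 of the 10 and by 6.41% of all genes, and the groups did not overlap in 5 of the 10 and in 47.4% of all genes. This comparison shares its DSS mice with the first one, so a high DSS value enters both.

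Compared with the control group, 4 genes were still higher in the DSS + EA group (*Il1b*, *Il18bp*, *Il1r2* and *Il1rl1*), where 3% of all genes were called higher and 0.637% lower, and 0 of the 10 were lower. The 3 DSS + EA mice lay above the 3 control mice in 8 of the 10 genes, while 32.2% of all genes had groups that did not overlap. The count of 4 rests on few mice: leaving out any 1 mouse gave between 1 and 5, and without control mouse 1 or control mouse 2 only *Il18bp* was called.

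**Figure D1:**
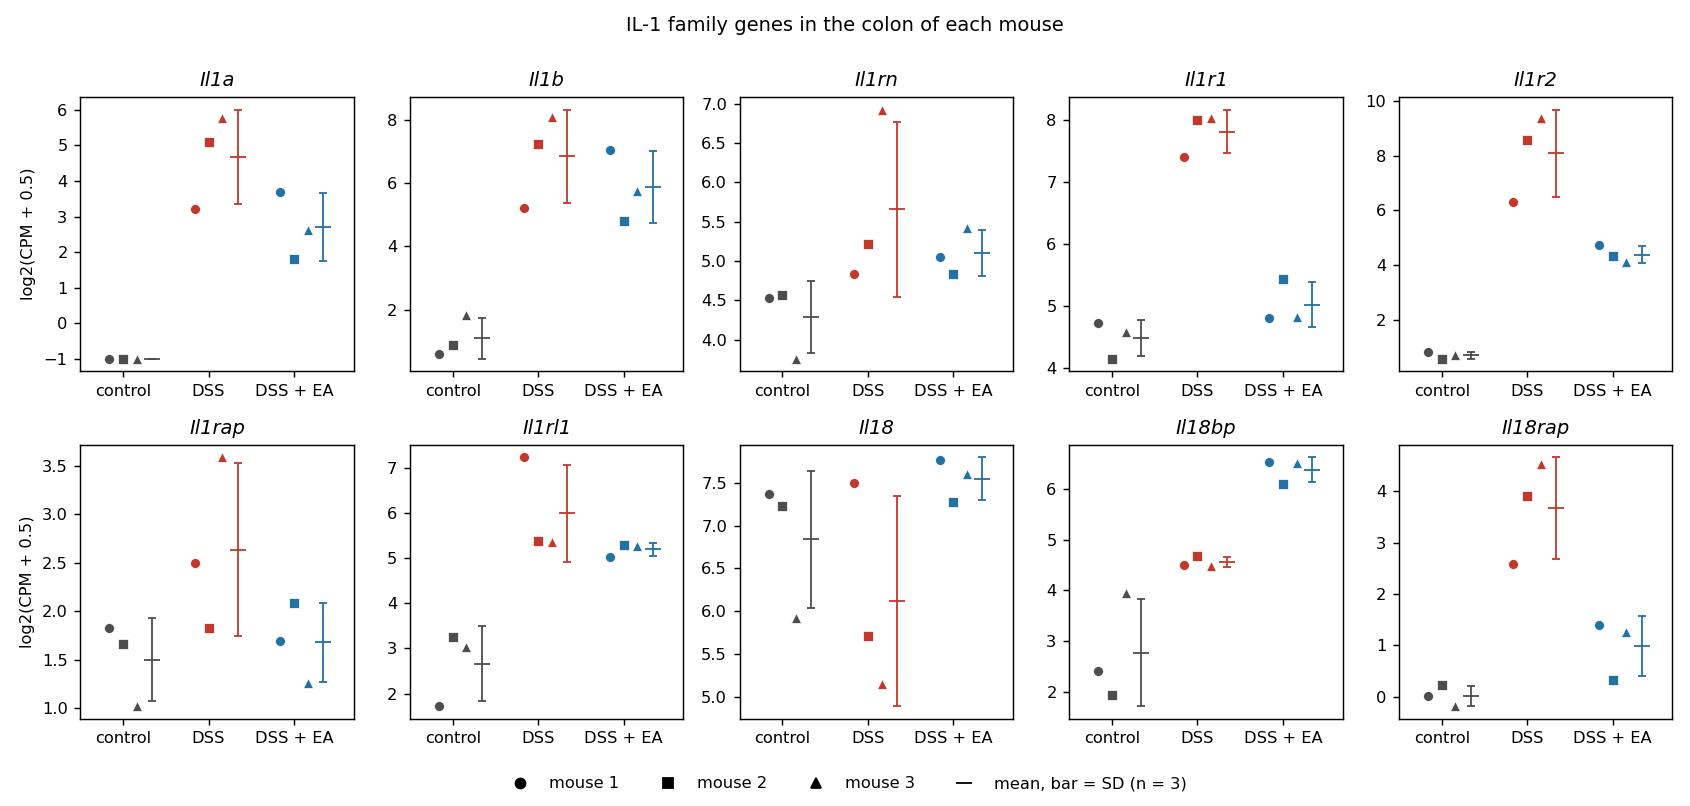
Level of the 10 IL-1 family genes in each mouse, as log2(CPM + 0.5), with the mean and SD of each group of 3 mice beside the points and a separate vertical scale for each gene. *Il1a*, *Il1b*, *Il1r1*, *Il1r2*, *Il1rl1* and *Il18rap* are low in the control mice and high in the DSS mice, *Il18bp* is highest in the DSS + EA mice, and *Il18* and *Il1rap* overlap between groups.

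*Il1b*, the gene of the main inflammatory IL-1 ligand, was counted 4, 4 and 8 times in the control mice, 114, 695 and 864 in the DSS mice and 436, 74 and 166 in the DSS + EA mice. Its mean level was 1.80 ± 1.10 CPM for control, 152 ± 116.5 CPM for DSS and 71.0 ± 54.9 CPM for DSS + EA (SD, n = 3 each). Every DSS and DSS + EA mouse was above every control mouse, whereas the DSS and DSS + EA mice overlapped, with DSS mouse 1 (36.7 CPM) below DSS + EA mice 1 and 3 (132.7 and 52.7 CPM). *Il1b* rose by 6.44 on the log2 scale with DSS (SE 0.945, edgeR quasi-likelihood adjusted p = 0.000724) and by 5.75 without DSS mouse 3 (adjusted p = 0.0015). It passed the filter on low counts through the mice given DSS, so its calls are a description. Between the DSS + EA and DSS groups the log2 fold change was -1.10 (SE 0.685, adjusted p = 0.23, edgeR), which did not pass the test. With 1 mouse left out it ranged from -1.93 without DSS + EA mouse 1 (edgeR adjusted p = 0.0774) to -0.40 without DSS mouse 3 (adjusted p = 0.678), and it passed without DSS mouse 1 alone (-1.53, adjusted p = 0.046). The DSS + EA group remained above the control group by 5.34 (SE 0.926, edgeR adjusted p = 0.0137), a call lost without control mouse 1 (adjusted p = 0.0916) or control mouse 2 (adjusted p = 0.079). Without DSS + EA mouse 1 it was 4.49 (edgeR adjusted p = 0.0318).

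*Il1a* encodes IL-1α, the ligand that dying cells release in active form. It had 0 counts in all 3 control mice, 27, 154 and 172 in the DSS mice and 41, 8 and 18 in the DSS + EA mice. It was at least 32.9-fold higher with DSS (edgeR quasi-likelihood adjusted p = 0.0015), a lower bound set by a floor of 3 counts in each control library. *Il1a* passed the filter on low counts through the mice given DSS, so its calls are a description. With EA it was lower by 4.53-fold in mean CPM (log2 fold change -2.15, SE 0.695, edgeR adjusted p = 0.0441), although DSS mouse 1 (8.69 CPM) lay below DSS + EA mouse 1 (12.5 CPM). That call was lost in 9 of 18 alternatives, with adjusted p between 0.00567 and 0.126 over all of them (edgeR or DESeq2). With 1 mouse left out the log2 fold change ranged from -2.86 without DSS + EA mouse 1 (adjusted p = 0.0402) to -1.57 without DSS mouse 3, where the call was lost (adjusted p = 0.121). It was also lost without DSS mouse 2, DSS + EA mouse 2 or 3, or control mouse 1 or 2 (adjusted p between 0.0503 and 0.126). Against the control group the DSS + EA mice were at least 7.28-fold higher, with an edgeR adjusted p of 0.0558 that became 0.0156 without DSS mouse 1, 0.0389 without DSS mouse 3, 0.124 without DSS + EA mouse 1 and 4.4e-05 in DESeq2. The bound of 7.28-fold rests in large part on DSS + EA mouse 1, at 12.5 CPM against 2.99 and 5.71 CPM in DSS + EA mice 2 and 3.

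*Il1rn*, the gene of the IL-1 receptor antagonist, had smaller log2 fold changes than the ligands that it opposes. Its counts were 89, 70 and 34 counts in the control mice, 87, 169 and 388 in the DSS mice and 107, 75 and 133 in the DSS + EA mice. In CPM the DSS mice (28.0, 36.7 and 121) lay above the control mice (22.6, 23.3 and 13.03), with 1 DSS mouse far above the others. The rise was 1.65 on the log2 scale (SE 0.51, edgeR quasi-likelihood adjusted p = 0.027). It was 0.72 without DSS mouse 3 (edgeR adjusted p = 0.0878), and the call was also lost without any 1 control mouse (adjusted p between 0.0596 and 0.0968). With EA the log2 fold change was -0.85 (adjusted p = 0.201, edgeR), and without DSS mouse 3 it was 0.08.

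The log2 ratio of *Il1rn* to *Il1b* counts within a mouse does not depend on library size. It was 4.31, 3.97 and 2.02 in the control mice, -0.39, -2.04 and -1.15 in the DSS mice and -2.02, 0.02 and -0.32 in the DSS + EA mice. The control mice lay above all others. The DSS mean was lower than the control mean by 24.7-fold and the DSS + EA mean by 18.5-fold, each with an exact two-sided permutation p of 0.1, the smallest that 3 mice against 3 can give (0.18 adjusted over the 9 ratio comparisons made). The size of both folds rests on the 4, 4 and 8 *Il1b* counts of the control mice. Between the DSS + EA and DSS groups the mean log2 ratio differed by 0.42, and the groups overlapped (exact permutation p = 0.5).

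**Figure D2:**
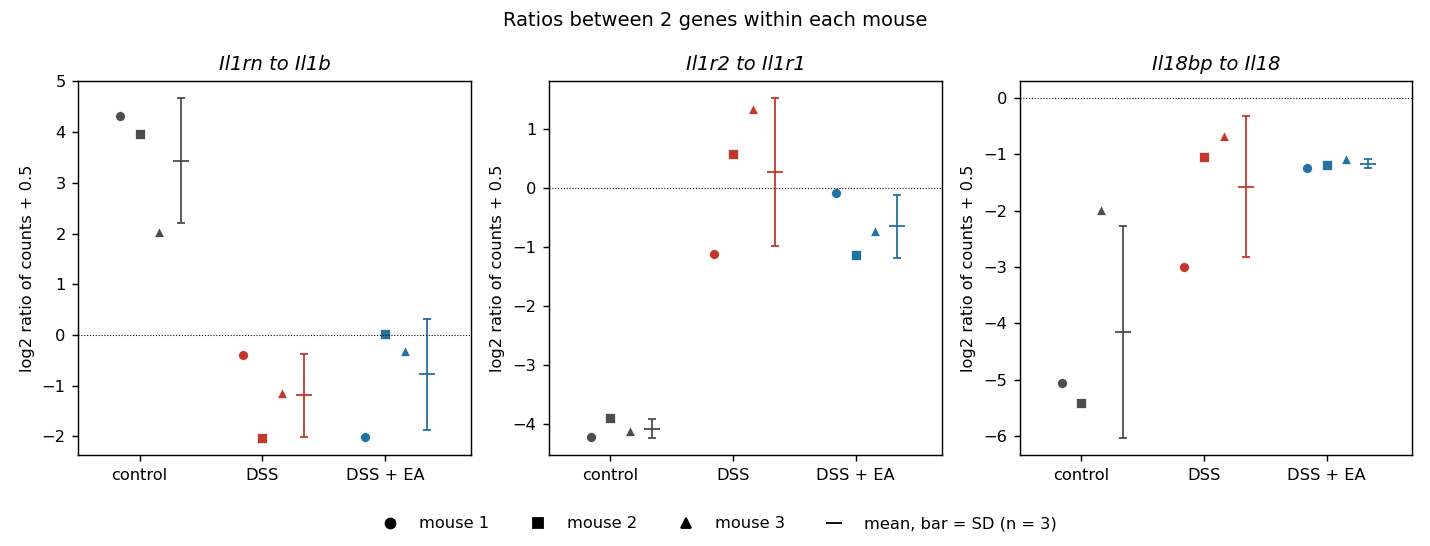
Log2 ratio of counts (each plus 0.5) of *Il1rn* to *Il1b*, *Il1r2* to *Il1r1* and *Il18bp* to *Il18* in each mouse, with the mean and SD of each group of 3 mice. The *Il1rn* to *Il1b* ratio is lower, and the *Il1r2* to *Il1r1* ratio higher, in all 6 mice given DSS than in the control mice, and the *Il18bp* to *Il18* ratio has its smallest spread in the DSS + EA mice.

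Among the receptors, *Il1r1*, the signalling receptor for both IL-1 ligands, had the smallest SE of the 10 genes in all 3 comparisons. It stood at 25.9, 17.3 and 23.4 CPM in the control mice, 169, 256 and 261 CPM in the DSS mice and 27.4, 43.0 and 27.9 CPM in the DSS + EA mice. The DSS mice lay far above both other groups, and each DSS + EA mouse lay above each control mouse by a small margin. It rose by 3.36 with DSS (SE 0.281, edgeR quasi-likelihood adjusted p = 4.54e-05) and changed by -2.81 with EA (SE 0.273, edgeR adjusted p = 0.000306). The difference between the DSS + EA and control groups, 0.56, did not pass (adjusted p = 0.326, edgeR). Both calls held in each of 18 alternatives, between 3.18 and 3.51 for DSS and between -3.01 and -2.70 for EA.

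*Il1r2*, the decoy receptor that neutrophils and other myeloid cells are known to carry, was counted 5, 3 and 3 times in the control mice and 242, 1764 and 2121 in the DSS mice. The DSS + EA mice had 85, 52 and 53 counts. The 3 groups did not overlap, and DSS mouse 1 was again the lowest of its group. It rose by 8.30 with DSS (SE 0.833, edgeR quasi-likelihood adjusted p = 0.000109), a 329-fold difference in mean CPM that rests on the few control counts. *Il1r2* passed the filter on low counts through the mice given DSS, so its calls are a description. Without DSS mouse 3 the rise was 7.61 (edgeR adjusted p = 0.000137) and without DSS mouse 1 it was 8.76. With EA it changed by -4.17 (SE 0.636, edgeR adjusted p = 0.00145), an 18.1-fold lower mean, a call that held in each of 18 alternatives, and with 1 mouse left out the change ranged from -4.62 without DSS mouse 1 to -3.47 without DSS mouse 3. The DSS + EA group was still 18.2-fold above the control group (log2 fold change 4.13, SE 0.795, edgeR adjusted p = 0.0206), a call lost in 5 of 18 alternatives, each of which left out 1 control mouse or DSS + EA mouse 1 or 3 (adjusted p between 0.0577 and 0.107).

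The log2 ratio of *Il1r2* to *Il1r1* was -4.22, -3.91 and -4.14 in the control mice, -1.12, 0.58 and 1.34 in the DSS mice and -0.08, -1.14 and -0.73 in the DSS + EA mice. Relative to control, the mean ratio of decoy to signalling receptor was 20.5-fold higher with DSS and 10.8-fold higher after EA, with no overlap (exact two-sided permutation p = 0.1 for each, 0.18 adjusted). The size of both folds rests on the 5, 3 and 3 *Il1r2* counts of the control mice. The DSS + EA and DSS groups overlapped (difference -0.92, exact permutation p = 0.3).

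*Il1rap*, whose product completes the IL-1, IL-33 and IL-36 receptors, was low throughout, with 4 to 12 counts in the control mice, 16, 14 and 37 in the DSS mice and 6 to 10 in the DSS + EA mice. Its log2 fold changes were 1.38 with DSS (adjusted p = 0.0619), -1.21 with EA (adjusted p = 0.0971) and 0.16 between the DSS + EA and control groups (adjusted p = 0.92), none of which passed edgeR's quasi-likelihood test. Without DSS mouse 2 the first 2 were called (1.76, edgeR adjusted p = 0.0221, and -1.60, edgeR adjusted p = 0.0387), and without DSS mouse 3 they were 0.70 and -0.53 (edgeR adjusted p = 0.272 and 0.408).

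*Il1rl1* encodes ST2, the receptor for IL-33, in a membrane form and a soluble decoy form that these gene counts do not separate. Its counts were 11, 27 and 20 in the control mice, 467, 189 and 129 in the DSS mice and 106, 104 and 119 in the DSS + EA mice. Here DSS mouse 1, the lowest for *Il1b* and *Il1r2*, was the highest, at 150 CPM against 41.1 and 40.3 CPM in the other DSS mice. *Il1rl1* rose by 3.59 with DSS (SE 0.598, edgeR quasi-likelihood adjusted p = 0.00137) and by 2.65 without that mouse (adjusted p = 0.000435). The change with EA was -1.09 (SE 0.522, adjusted p = 0.128, edgeR) and -0.14 without that mouse, so that the other DSS mice and the DSS + EA mice, at 32.3 to 38.9 CPM, were close. The DSS + EA group was 5.6-fold above the control group (log2 fold change 2.51, edgeR adjusted p = 0.0478). That call was lost in 9 of 18 alternatives, among them those without any 1 control or DSS + EA mouse, in which the log2 fold change lay between 2.11 and 2.84 (edgeR adjusted p between 0.0928 and 0.207).

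*Il18* varied widely between mice of 1 group, and no comparison of groups passed the test. It stood at 165, 149 and 60.2 CPM in the control mice, 180, 51.7 and 35.0 CPM in the DSS mice and 218, 155 and 194 CPM in the DSS + EA mice. The groups overlapped in all 3 comparisons. The log2 fold change was -0.50 with DSS (adjusted p = 0.506), 1.09 with EA (adjusted p = 0.155) and 0.59 between the DSS + EA and control groups (adjusted p = 0.643), by edgeR's quasi-likelihood test. Without DSS mouse 1, *Il18* was lower with DSS (-1.55, edgeR adjusted p = 0.0112) and higher with EA (2.15, edgeR adjusted p = 0.00304). That mouse also had the highest summed epithelium marker level of its group, as given above. In the control group the values went the other way: *Il18* was lowest in mouse 3, the mouse with the highest sum (31810 CPM). Of the sums of control mice 3, 1 and 2, *Car1* made 21530, 9712 and 5243 CPM. The part of the epithelium in the *Il18* values was not tested.

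*Il18bp*, the gene of the IL-18 binding protein, was the one member called higher with DSS and again with EA. It stood at 4.83, 3.33 and 15.0 CPM in the control mice, 22.2, 25.0 and 21.9 CPM in the DSS mice and 91.9, 68.0 and 91.0 CPM in the DSS + EA mice. The 3 groups did not overlap, and the DSS mice were close to each other. It rose by 1.61 with DSS (SE 0.444, edgeR quasi-likelihood adjusted p = 0.0163), which was not called without control mouse 1 (1.31, adjusted p = 0.0736) or control mouse 2 (1.22, adjusted p = 0.0552) and was 2.44 without control mouse 3 (adjusted p = 0.000936). It rose by a further 1.86 with EA (SE 0.412, edgeR adjusted p = 0.00776) and stood 10.9-fold above the control group (log2 fold change 3.47, SE 0.455, edgeR adjusted p = 0.00445), or 4.33 on the log2 scale without control mouse 3. The EA call held in each of 18 alternatives, between 1.78 and 2.02, including those without DSS + EA mouse 2 (adjusted p = 0.0161) or mouse 3 (adjusted p = 0.0299), the libraries with most pancreatic RNA. Mouse 1 holds less of it, and the part of pancreatic RNA in the *Il18bp* values was not tested.

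The log2 ratio of *Il18bp* to *Il18* was -5.06, -5.42 and -1.995 in the control mice, -3.01, -1.05 and -0.67 in the DSS mice and -1.24, -1.18 and -1.09 in the DSS + EA mice. The DSS + EA mice lay above all control mice (7.93-fold in the mean, exact two-sided permutation p = 0.1, adjusted 0.18). The DSS mice overlapped with both other groups (exact permutation p = 0.2 and 1).

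*Il18rap*, the accessory chain of the IL-18 receptor, was counted 2, 2 and 1 times in the control mice, 17, 67 and 72 in the DSS mice and 7, 2 and 6 in the DSS + EA mice. The DSS mice were above both other groups. The summed counts were 27.3-fold higher with DSS than in the control group, adjusted for library size, with a 95% counting interval of 11.4 to 85.3 (fitted log2 fold change 4.66, SE 0.657, edgeR quasi-likelihood adjusted p = 0.000592). With EA *Il18rap* changed by -3.09 (SE 0.557, edgeR adjusted p = 0.00305). It passed the filter on low counts through the mice given DSS, so its calls are a description. The binding chain of the same receptor, *Il18r1*, had at most 8 counts in any mouse and was not tested.

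**Figure D3:**
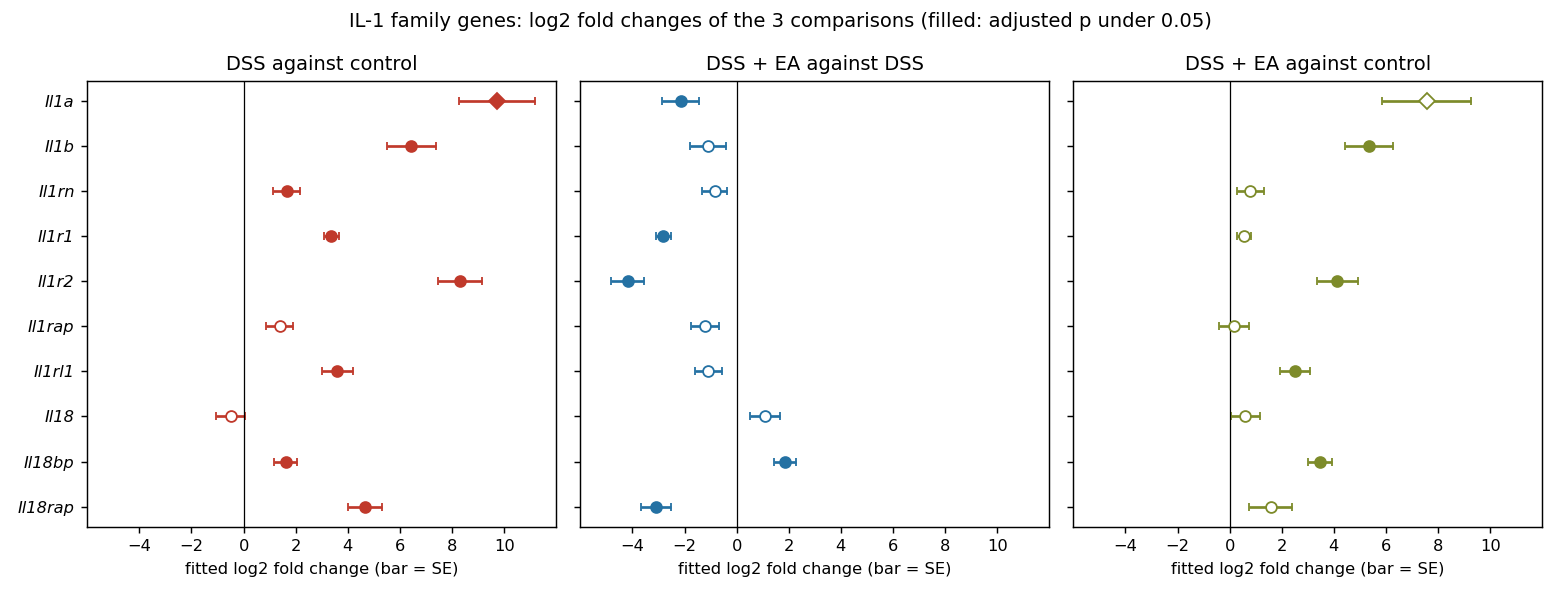
Fitted log2 fold changes of the 10 genes, with SE bars, in the 3 comparisons between groups; filled symbols passed the test, and diamonds mark *Il1a* against a control group at 0 counts, where the fitted value is not a bound. *Il1r1* has the shortest bars, at 3.36 and -2.81, and *Il18bp* is the one filled symbol to the right of 0 in the comparison of DSS + EA with DSS.

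Of the 11 other family genes looked up, 3 had enough counts to be tested. *Il33*, the alarmin that binds ST2, was counted 7, 15 and 12 times in the control mice, 117, 216 and 535 in the DSS mice and 102, 56 and 65 in the DSS + EA mice. It rose by 4.49 with DSS (edgeR quasi-likelihood adjusted p = 0.000673) and changed by -1.79 with EA (edgeR adjusted p = 0.0294). Both values rest in large part on DSS mouse 3, at 167 CPM against 37.6 and 46.9 CPM in DSS mice 1 and 2. The DSS + EA mice stood at 31.05, 20.9 and 20.6 CPM. *Sigirr*, an inhibitory receptor of colon epithelium, moved in the opposite directions, with 78, 67 and 54 counts in the control mice, 39, 16 and 15 in the DSS mice and 69, 63 and 73 in the DSS + EA mice. Its log2 fold change was -1.63 with DSS (edgeR adjusted p = 0.00958) and 1.73 with EA (edgeR adjusted p = 0.00905). *Il36g*, an epithelial ligand of the family, had 0 counts in the control mice, 2, 45 and 96 in the DSS mice and 27, 10 and 9 in the DSS + EA mice. It was at least 13.9-fold higher with DSS (edgeR adjusted p = 0.012), and the change with EA did not pass (-1.42, adjusted p = 0.279, edgeR). *Il36g* passed the filter on low counts through the mice given DSS, so its call is a description. The bound rests in large part on DSS mouse 3, at 29.96 CPM against 0.643 and 9.78 CPM in DSS mice 1 and 2. Among the untested genes, *Il1rl2*, the IL-36 receptor, reached 21 counts in a DSS mouse, *Il36a*, *Il36b* and *Il1rapl1* had at most 3 counts in any mouse, and *Il36rn*, *Il1f10* and *Il1rapl2* had 0 in every mouse.

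The genes of the inflammasome, the machinery that activates the IL-1β and IL-18 precursors, moved mostly down with DSS and up with EA. The fitted values of *Il1a* and *Il1b* had the opposite signs, and those of *Il18* the same signs. The change of *Il1b* with EA and both changes of *Il18* did not pass the test. Of the 13 inflammasome genes tested of 16, 1 was higher and 9 were lower with DSS. Their median log2 fold change was -1.07, where 21.5% of all genes were higher and 19.5% lower. With EA 10 were higher and 1 was lower, with a median of 1.24, where 17.2% of all genes were higher and 18.3% lower. The one called the other way in both was *Nlrp3*, the myeloid inflammasome sensor, with 0 counts in the control mice, 17, 89 and 80 in the DSS mice and 8, 4 and 7 in the DSS + EA mice (at least 17.1-fold higher with DSS, edgeR quasi-likelihood adjusted p = 0.000733, and -2.98 with EA, edgeR adjusted p = 0.0076). It passed the filter on low counts through the DSS mice, so its call is a description. *P2rx7*, the ATP receptor that triggers NLRP3, had values of the same signs that did not pass (0.97, adjusted p = 0.0556, and -0.70, adjusted p = 0.148, edgeR), with groups that did not overlap. *Mefv*, the gene of the sensor pyrin, was not tested and had 1, 1 and 0 counts for control, 2, 33 and 62 for DSS and 7, 3 and 10 for DSS + EA. *Nlrp6*, a sensor of intestinal epithelium, was counted 284, 176 and 175 times in the control mice, 32, 9 and 3 in the DSS mice and 253, 191 and 207 in the DSS + EA mice. Its log2 fold changes were -3.95 with DSS (edgeR adjusted p = 0.000872) and 4.06 with EA (edgeR adjusted p = 0.00131). *Casp1*, the protease that cuts both precursors, fell by 1.41 with DSS and rose by 1.79 with EA (edgeR adjusted p = 0.00202 and 0.00111). *Naip6*, a sensor of bacterial flagellin, changed by -1.25 and 1.37 (edgeR adjusted p = 0.00183 and 0.00181). *Gsdmd*, the pore protein through which the active cytokines leave the cell, changed by -0.62 with DSS and 1.58 with EA (edgeR adjusted p = 0.0191 and 0.000472). It alone of the list was called between the DSS + EA and control groups, at 0.96 (edgeR adjusted p = 0.0177). In that comparison 3% of all genes were higher and 0.637% lower.

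In the list of IL-1 receptor signalling genes, 21 of 22 were tested, of which 11 were higher (21.5% of all genes) and 0 lower with DSS, with a median log2 fold change of 0.84. With EA 1 was higher and 10 were lower, with a median of -0.83, where 17.2% of all genes were higher and 18.3% lower. Between the DSS + EA and control groups 0 were called, where 3% of all genes were higher and 0.637% lower. The 2 genes with the smallest P for DSS are inhibitors of NF-κB that NF-κB itself induces. *Nfkbia* averaged 79.5 ± 5.24 CPM for control, 873 ± 215 CPM for DSS and 163 ± 45.7 CPM for DSS + EA (SD, n = 3 each), a change of 3.46 with DSS and -2.42 with EA (edgeR quasi-likelihood adjusted p = 3.33e-05 and 0.000391). *Tnfaip3* changed by 2.65 and -1.58 (edgeR adjusted p = 0.000176 and 0.00258). *Traf6*, the ubiquitin ligase downstream of the receptors, changed by 2.17 and -1.92 (edgeR adjusted p = 0.00102 and 0.00263), and *Nfkbiz*, a nuclear cofactor of NF-κB, by 1.59 and -0.90 (edgeR adjusted p = 0.00169 and 0.0272).

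Genes that IL-1 is known to induce, which other cytokines and microbial products induce as well, had medians farther from 0 than the other 3 lists in the DSS and EA comparisons. All 16 tested of 18 were higher with DSS, 14 were lower with EA, and 14 were still above control after EA, against 21.5%, 18.3% and 3% of all genes. Genes low in every control mouse, among them *Cxcl1*, *Csf3* and *Mmp3*, passed the filter through mice given DSS. Their calls, and these counts, are therefore a description. The medians were 7.51, -3.27 and 4.38 (3.73 with genes at 0 in the control group set to their bound). *Cxcl1*, a neutrophil-attracting chemokine, was counted 2, 2 and 0 times in the control mice, 1255, 3111 and 1322 in the DSS mice and 52, 57 and 65 in the DSS + EA mice. *Csf3*, the granulocyte growth factor, had 0 counts in the control mice, 495, 1255 and 692 in the DSS mice and 8, 6 and 5 in the DSS + EA mice, so that it was at least 222.7-fold higher with DSS and 103.5-fold lower with EA in mean CPM (edgeR quasi-likelihood adjusted p = 1.01e-05 and 0.00011). *Mmp3*, a matrix protease of fibroblasts, changed by 8.57 and -3.80 (edgeR adjusted p = 5.28e-06 and 0.000161). *Vcam1*, an adhesion molecule of vessels, changed by 3.52 with DSS and by -0.88 with EA (edgeR adjusted p = 2.9e-05 and 0.0153). The 2 genes of the list not called with EA were *Tnf* and *Nos2*, named after their values were seen, with log2 fold changes of -0.53 (adjusted p = 0.444) and 1.63 (adjusted p = 0.0515) by edgeR.

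**Figure D4:**
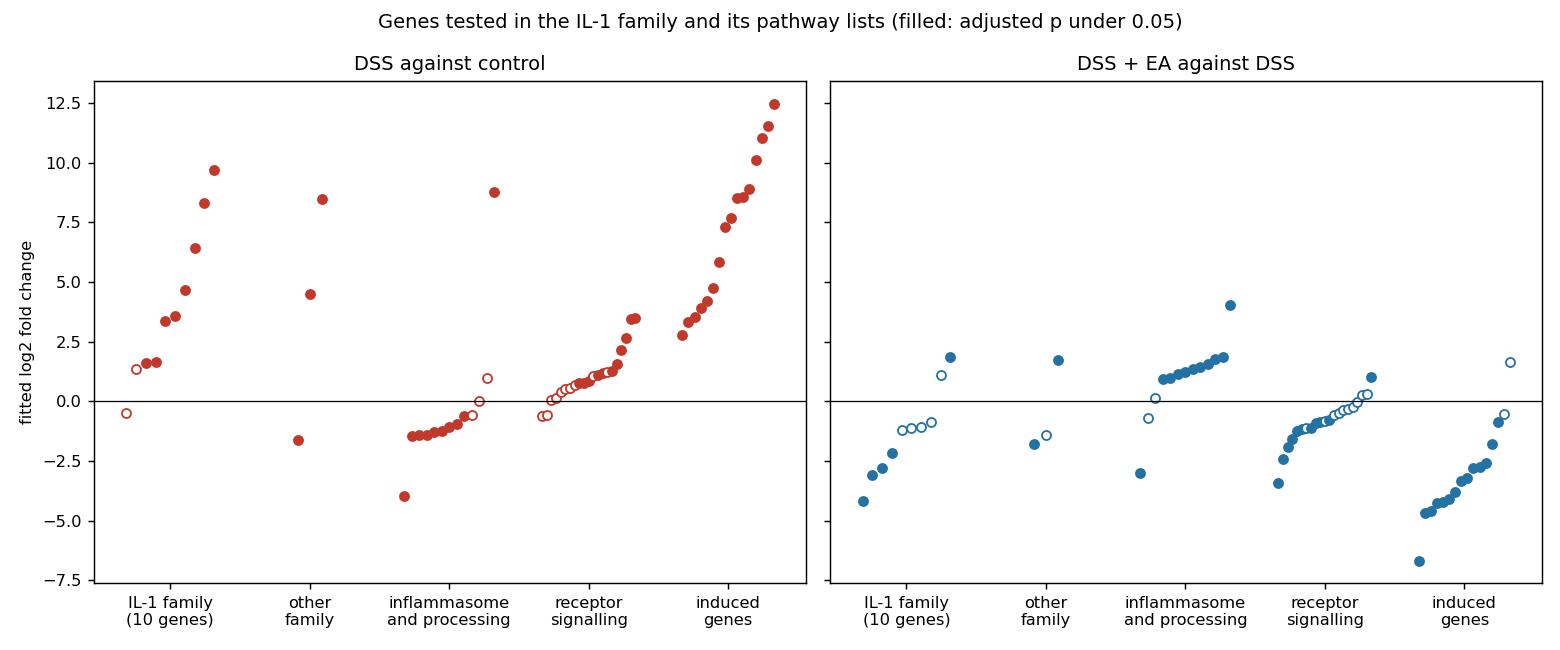
Fitted log2 fold change of each tested gene of the 10 IL-1 family genes and of 4 lists (other family genes, inflammasome and processing, receptor signalling, induced genes). The comparisons are DSS against control (left) and DSS + EA against DSS (right). Filled points passed the test, and both panels use the same DSS mice. The inflammasome list lies mostly below 0 with DSS (median -1.07) and above 0 with EA (median 1.24), opposite to the induced genes (7.51 and -3.27).

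Markers of several cell types moved with the family. The 12 neutrophil markers summed to 135, 160 and 22.6 CPM in the control mice, 4581, 25260 and 27740 CPM in the DSS mice and 1487, 1211 and 1600 CPM in the DSS + EA mice. Their most abundant gene over all mice was *S100a8*, and *Ltf* and *Trem1* were at 0 in the control group. *Ly6g* made 128, 149 and 16.5 CPM of the sums of the control mice, nearly all of them. In the DSS + EA mice it made 506.5, 553 and 1037 CPM. Of the 11 tested, 11 rose with DSS (21.5% of all genes) and 9 fell with EA (18.3% of all genes). Markers at or near 0 in the control mice, such as *Ltf*, *Trem1*, *Mmp8*, *Ngp* and *Cxcr2*, passed the filter on low counts through the mice given DSS, so the count is a description. Among the DSS mice, mouse 1 was the lowest for 11 of the 12 markers, and for *Il1a*, *Il1b*, *Il1rn*, *Il1r1*, *Il1r2* and *Il18rap*. The exception was *Ly6g*, which was highest there (2166 CPM, against 1298 and 1406 CPM in DSS mice 2 and 3). The 12 monocyte and macrophage markers (most abundant *Lyz2*, none at 0) summed to 559 to 628 CPM in the control mice, 1681, 2103 and 3233 CPM in the DSS mice and 1077 to 1298 CPM in the DSS + EA mice, of which 10 rose with DSS (21.5% of all genes) and 7 fell with EA (18.3%). The part of these cells in the changes of the IL-1 genes was not tested.

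The 8 fibroblast markers (most abundant *Dcn*) summed to 762 to 832 CPM in the control mice, 4121, 4925 and 6857 CPM in the DSS mice and 1633 to 1723 CPM in the DSS + EA mice. The 5 endothelial markers (most abundant *Pecam1*) summed to 31.0 to 34.3 CPM in the control mice, 82.4 to 107.8 CPM in the DSS mice and 33.2 to 35.8 CPM in the DSS + EA mice. The fibroblast, endothelial, neutrophil and monocyte sums of all DSS mice lay above those of the other groups, as did *Il1r1*, which stromal and vessel cells are known to carry. The part of these cells in the *Il1r1* values was not tested. Of the 13 epithelium markers (most abundant *Car1*), 8 were lower and 0 higher with DSS, and 5 were higher and 0 lower with EA (19.5% of all genes lower with DSS, 17.2% higher with EA). *Sigirr*, *Nlrp6* and *Casp1* moved in the same directions, and the part of the epithelium in them was not tested. The 5 smooth muscle markers (most abundant *Acta2*) summed to 2225 to 2677 CPM in the control mice, 902 to 1695 CPM in the DSS mice and 1657 to 1752 CPM in the DSS + EA mice.

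Lymphocytes, mast cells and eosinophils, the cells best known for the IL-18 and IL-33 receptors, left little RNA. The 10 T and NK cell markers summed to between 12.2 and 37.4 CPM in any mouse (most abundant *Cd3d*), and the DSS + EA mice, at 34.9 to 37.4 CPM, were above all others. The 10 mast cell markers summed to 13.4 to 33.0 CPM, mostly *Kit*, with *Ms4a2* at 0 in every mouse, and the 5 eosinophil markers to 3.81 to 11.3 CPM (most abundant *Prg2*), with *Epx* at 0 in every mouse. Single markers differed in direction. Of the T and NK cell markers, 5 were tested, and their median log2 fold change was 0.66 in both the DSS and the EA comparison. With DSS 0 were higher and 1 was lower, where 21.5% of all genes were higher and 19.5% lower. *Cd3d* (0.95, adjusted p = 0.0962), *Gzma* (0.99, adjusted p = 0.252), *Cd4* (0.66, adjusted p = 0.233) and *Cd3g* (-0.12, adjusted p = 0.831) did not pass edgeR's quasi-likelihood test. The one called, *Nkg7*, a cytotoxic granule gene, was counted 14, 10 and 15 times in the control mice, 2, 9 and 6 in the DSS mice and 34, 17 and 26 in the DSS + EA mice. It was lower with DSS (-1.42, edgeR adjusted p = 0.0296) and higher with EA (2.42, edgeR adjusted p = 0.00279). *Il5ra* was counted 2, 1 and 1 times in the control mice, 12, 38 and 11 times in the DSS mice and 4, 6 and 13 times after EA. It was higher with DSS (log2 fold change 3.55, edgeR quasi-likelihood adjusted p = 0.00231). *Il5ra* passed the filter on low counts through the mice given DSS, so its call is a description. *Prg2*, the other eosinophil marker tested, did not pass (-0.95, edgeR adjusted p = 0.14). Of the mast cell markers, 2 were tested: *Kit* was lower with DSS (-1.92, edgeR adjusted p = 0.00151), and the protease gene *Cma1* had a positive value that did not pass (1.56, edgeR adjusted p = 0.162). *Kit* made 70.3% of the mast cell marker sum over all mice, and whether its RNA came from mast cells was not tested. The mast cell proteases too low to test went both ways. *Mcpt1* was counted 9, 4 and 1 times with DSS, against 2, 1 and 1 for control. For *Mcpt2* the DSS counts were 6, 3 and 1, against 0, 0 and 1. *Tpsb2* ran opposite, with 0, 0 and 2 for DSS against 2, 4 and 2 for control. *Mcpt4*, *Cpa3* and *Tpsab1* stayed at or under the floor. The part of these cells in the changes of *Il18rap* and *Il1rl1* was not tested.

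**Figure D5:**
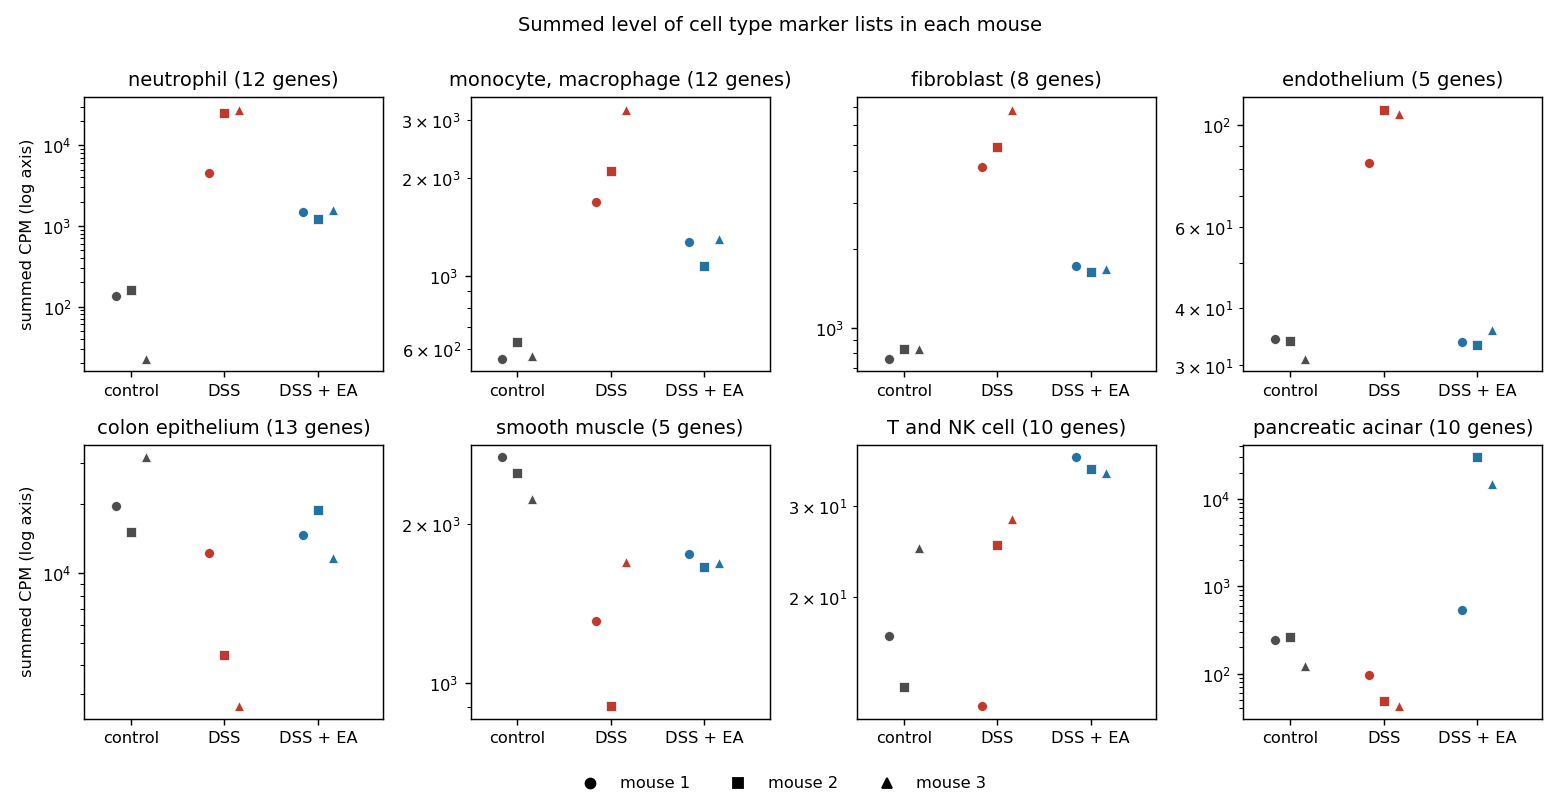
Summed CPM of 8 marker lists in each mouse, on log axes with a separate scale for each list. Neutrophil sums rise from at most 160 CPM in the control mice to at least 4581 CPM in the DSS mice, endothelial sums are high in the DSS mice alone, and pancreatic acinar sums reach 30060 and 14990 CPM in DSS + EA mice 2 and 3.

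The genes whose log2 CPM followed each member most closely over the 9 mice are given as a description, since 9 mice in 3 groups share the group differences. For *Il1r2* they were *Trem1*, *Nlrp3* and *Chil3* (Pearson r of 0.997, 0.996 and 0.995), genes of neutrophils and other myeloid cells. For *Il1b* they were *Hdc*, *Pld4*, *Tnfsf9*, *Cd86* and *Tnf* (0.987 to 0.977), and for *Il1a* they were *C1qb*, *Clec4e* and *Cxcl2* (0.994 to 0.986). *Il1r1* was followed by *Rhoj*, *Lrp1* and *Mt1* (0.995 to 0.99) and *Il18rap* by *Rnd1*, *Cd84* and *Tgfbr2* (0.992 to 0.99). For *Il18bp* they were *Snrnp40*, *Tgtp1* and *Erap1* (0.98 to 0.948). *Tgtp1*, an interferon-induced GTPase, was counted 10, 3 and 10 times in the control mice, 14, 28 and 38 in the DSS mice and 155, 82 and 164 in the DSS + EA mice. *Il18* was followed by *Saa1* and *Rdh16* (0.953 and 0.952), *Il1rn* by *Rgs19*, *Myo1f* and *Dimt1* (0.983 to 0.958), *Il1rap* by *Pwp1*, *Tmem222* and *Scamp3* (0.962 to 0.936) and *Il1rl1* by *Pgk1*, *Clp1* and *Gja1* (0.962 to 0.947).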

How the data were processed

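The authors deposited whole-number read counts per gene for each mouse, without normalization, and the submitters' processing notes name the genome build mm10. The aligner, counting tool, annotation and use of strand are not given in the sources used here. Of the lines in the table, 14 without counts were left out, and 5620 of the 27719 genes had no count in any library. Library totals lay between 2627695 and 4235576.

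The quasi-likelihood F test of edgeR 4.0.16 (R 4.3.3; TMM scaling, prior count 0.125) was fitted once to all 9 libraries, with no term but the group. Its filterByExpr function kept 12566 genes, over which p-values were adjusted by Benjamini-Hochberg. SE is the log2 fold change divided by the square root of F. The DEG rule uses the thresholds of the paper's methods. Positions are from GENCODE on GRCm38 and promoters from RefSeq on GRCm38.p6. Ratios within a mouse used counts plus 0.5 and exact permutation tests (scipy 1.17.1). The code was tested on simulated data. Alternatives were DESeq2 1.42.0, RLE normalization, library totals, no filter, a minimum mean count of 20, a fit of 2 groups alone, robust dispersion, a prior count of 2, the replicate number as a block, and each mouse left out.

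The 10 genes, the lists and the tests were chosen with earlier results of these data known. Named genes are the 10 members, every other family gene and, in the 3 pathway lists (inflammasome, signalling, induced genes), up to 4 called genes with the smallest P for DSS and 3 for EA. Cell type markers given with values of their own, and *P2rx7* and *Mefv*, were chosen after their values were seen. Likeness was ranked by Pearson r of log2 CPM (prior count 2), and 1 gene of that ranking is not reported here. With 3 mice a group, no outlier test was made. The labels give no cage or batch. Each library is a separate mouse.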

Additional observations from a re-analysis of the deposited data

How the results depend on the processing

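Of the calls of single members, 33 were lost and 10 gained over all alternatives, while 485 values kept their direction and side of the threshold. With 1 mouse left out, the members called ranged from 6 to 9 for DSS against control and from 4 to 7 for DSS + EA against DSS. *Il1a*, *Il1b*, *Il1r2*, *Il1rap* and *Il18rap* had few counts in the control libraries. The part of this in the comparisons with control was not tested. DEG-rule counts were 832 higher and 448 lower for DSS against control, 366 and 440 (3 members) for DSS + EA against DSS, and 219 and 42 for DSS + EA against control. With only the 2 groups compared, 1441 genes were higher with EA than with DSS (2162 in the fit of 3 groups), and 790 higher and 359 lower than in the control group (377 and 80). DESeq2 called 135 lower there. The median log2 fold change of all genes was 0.11 with DSS and -0.17 with EA in DESeq2, which also took in unfiltered genes, against 0.02 and -0.02 in edgeR. With 1 mouse left out, genes called higher ranged from 1410 to 3050 for DSS + EA against DSS. For DSS + EA against control they ranged from 88 to 599, those lower from 14 to 173 and members from 1 to 5. With 1 mouse left out, the log2 fold change of *Il1rn* with EA ranged from -1.17 to 0.084 (reversed without DSS mouse 3), and that of *Il1rap* between DSS + EA and control from -0.077 to 0.38 (reversed without control mouse 3 or DSS + EA mouse 2). For ratios, *Il1rn* to *Il1b* with EA ranged from -0.0027 to 1.04 and *Il18bp* to *Il18* with EA from -0.31 to 0.86 with 1 mouse left out, and *Il1r2* to *Il1r1* between DSS + EA and control was 3.03 with a pseudocount of 2 (3.44 with 0.5). The causes of these changes were not tested.

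The replicate numbers do not pair the mice: over 9 same-numbered pairs the correlation of deviations lay between -0.16 and 0.105, with 1 over 0.1. With the replicate number as a block, 2361 genes were higher and 2182 lower with DSS (7 members called), 1911 and 1918 with EA (5 members), and 313 and 51 between DSS + EA and control (3 members). Calls of *Il1rn* with DSS, *Il1a* with EA and *Il1rl1* between DSS + EA and control were lost under the block, and *Il18* with EA was gained (1.43, edgeR adjusted p = 0.0428).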
